A study of Mus musculus with 9 samples.

Results

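Cytosolic ribosomal proteins are the protein parts of the ribosome that translates messenger RNA in the cytoplasm. Their genes were picked from the array's annotation by symbol alone (Rpl or Rps followed by a number, plus Rplp0, Rplp1, Rplp2 and Rpsa), without ribosomal protein kinases and pseudogenes. The symbol rule used no measured value, but the family was chosen with earlier results of these data known. The rule gave 59 genes with 1 probe each, 39 of the large and 20 of the small subunit, of 8841 named genes and 10012 probes in all. The RNA came from mouse lung and was measured on 9 arrays. Mechanical ventilation for 3 h at 25 cmH2O, named overventilation by the study, preceded 3 of the samples. Another 3 came after an injection of E. coli lipopolysaccharide (LPS, O127:BO serotype) at 3 mg/kg, and 3 served as controls. Strain, age, sex, the time after the injection and the handling of the controls are not stated. The labels do not say that each sample is a different mouse, so a p-value here measures the scatter of these samples, possibly technical scatter alone.

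A ribosome has a small subunit, which reads the codons of the mRNA, and a large subunit, which joins amino acids. The proteins of both are made in matched amounts and assembled with ribosomal RNA in the nucleolus. Their mRNAs are among the most abundant of most cells and carry a pyrimidine tract at the start (the TOP motif), through which the mTOR pathway adjusts their translation. Ribosomal protein genes often serve as steady references in expression studies.

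The sequences around the gene starts are shown first for 3 genes of each set of members that shared a pattern in these data, and for 2 members that varied little. They come from RefSeq on GRCm38.p6, which listed a start for 49 of the 59 genes, and run 5′ to 3′ on the gene's strand from 40 bases before the start to 20 bases from it on. Capitals mark TTCCG, the core bound by ETS factors, and CTTTC, a core of pyrimidine-rich starts, on either strand. Rpl27, Rps7 and Rps13 had low values on overventilation arrays 1 and 3, Rpl31, Rpl35 and Rps23 on LPS array 2 alone, and Rps6 and Rps28 were steady.
Rpl27 (chr11:101442205-101442264, plus strand): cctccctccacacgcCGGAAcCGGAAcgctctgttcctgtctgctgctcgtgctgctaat
Rps7 (chr12:28635934-28635993, minus strand): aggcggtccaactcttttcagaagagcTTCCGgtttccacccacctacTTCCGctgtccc
Rps13 (chr7:116334171-116334230, minus strand): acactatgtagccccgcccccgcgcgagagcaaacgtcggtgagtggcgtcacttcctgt
Rpl31 (chr1:39367811-39367870, plus strand): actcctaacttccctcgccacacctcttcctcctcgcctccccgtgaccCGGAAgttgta
Rpl35 (chr2:39005112-39005171, minus strand): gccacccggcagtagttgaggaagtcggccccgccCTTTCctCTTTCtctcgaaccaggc
Rps23 (chr13:90923082-90923141, plus strand): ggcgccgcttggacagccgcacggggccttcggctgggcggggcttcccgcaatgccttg
Rps6 (chr4:86857348-86857407, minus strand): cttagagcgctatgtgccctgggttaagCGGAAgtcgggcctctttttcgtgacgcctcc
Rps28 (chr17:33824543-33824602, minus strand): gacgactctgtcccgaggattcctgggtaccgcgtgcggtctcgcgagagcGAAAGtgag

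Over the whole window of 250 bases before to 50 after the start, on both strands, TTCCG was found at 44 of the 49 ribosomal protein genes (89.8%), against 46.1% of the 7051 array genes in the table. CTTTC was found at 41 of the 49 (83.7%), against 59.8%, and both overlapped as CTTTCCG at 8. On the gene's strand from 10 bases before to 15 after the start, CTTTC stood at 13 of the 49 (26.5%), against 3.29%. Of the genes low on overventilation arrays 1 and 3, a window was listed for 4, of which 4 held TTCCG and 2 CTTTC. Of the genes low on LPS array 2, a window was listed for 6, of which 5 held TTCCG and 6 CTTTC. Of the other tested genes, a window was listed for 38, of which 34 held TTCCG and 32 CTTTC. The 49 genes also include an untested member. A match of 5 letters is a description of the window and not a binding site.

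The deposited values are ratios to the mean of the 3 control arrays, so the control mean of every probe is 0 on the log2 scale used here and levels of different genes cannot be compared. Low signals carried a floor of their own on each array, and where that floor was known, values under the highest of the 9 floors were set to it. After a filter on low values 5710 probes were tested, among them 57 of the 59 members, and 55 of the 59 had no floor that could be seen. None of 10 lung marker probes had floor values throughout, and 8 of them were tested. Among all tested probes 291 had an isolated low value on LPS array 2, 41 on overventilation array 3, and 22 or fewer on each other array, so members are given array by array.

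As groups, the large and small subunit genes lay close to the control mean on most arrays. The median of the 38 tested large subunit genes was -0.13, -0.09 and -0.58 on the overventilation arrays (in the order of their numbers), -0.03, -0.13 and -0.13 on the LPS arrays, and 0.11, -0.05 and -0.00 on the control arrays. Overventilation array 3 was the lowest and the other 8 lay within the range from -0.13 to 0.11. That array also stood apart over all tested probes, with 17.1% below -1 and 16.8% above 1, and the median of its 8 lung marker probes was 1.59, against -0.20 to 0.41 on the other overventilation and LPS arrays. The part of this in the members' values was not tested. The median of the 19 tested small subunit genes was -0.37, -0.00 and -0.19 on the overventilation arrays, -0.19, -0.16 and -0.04 on the LPS arrays, and -0.07, 0.03 and 0.03 on the control arrays. The lowest small subunit median was therefore on another array, overventilation array 1. Over all 5710 tested probes the array medians lay between -0.12 and 0.09.

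**Figure D1:**
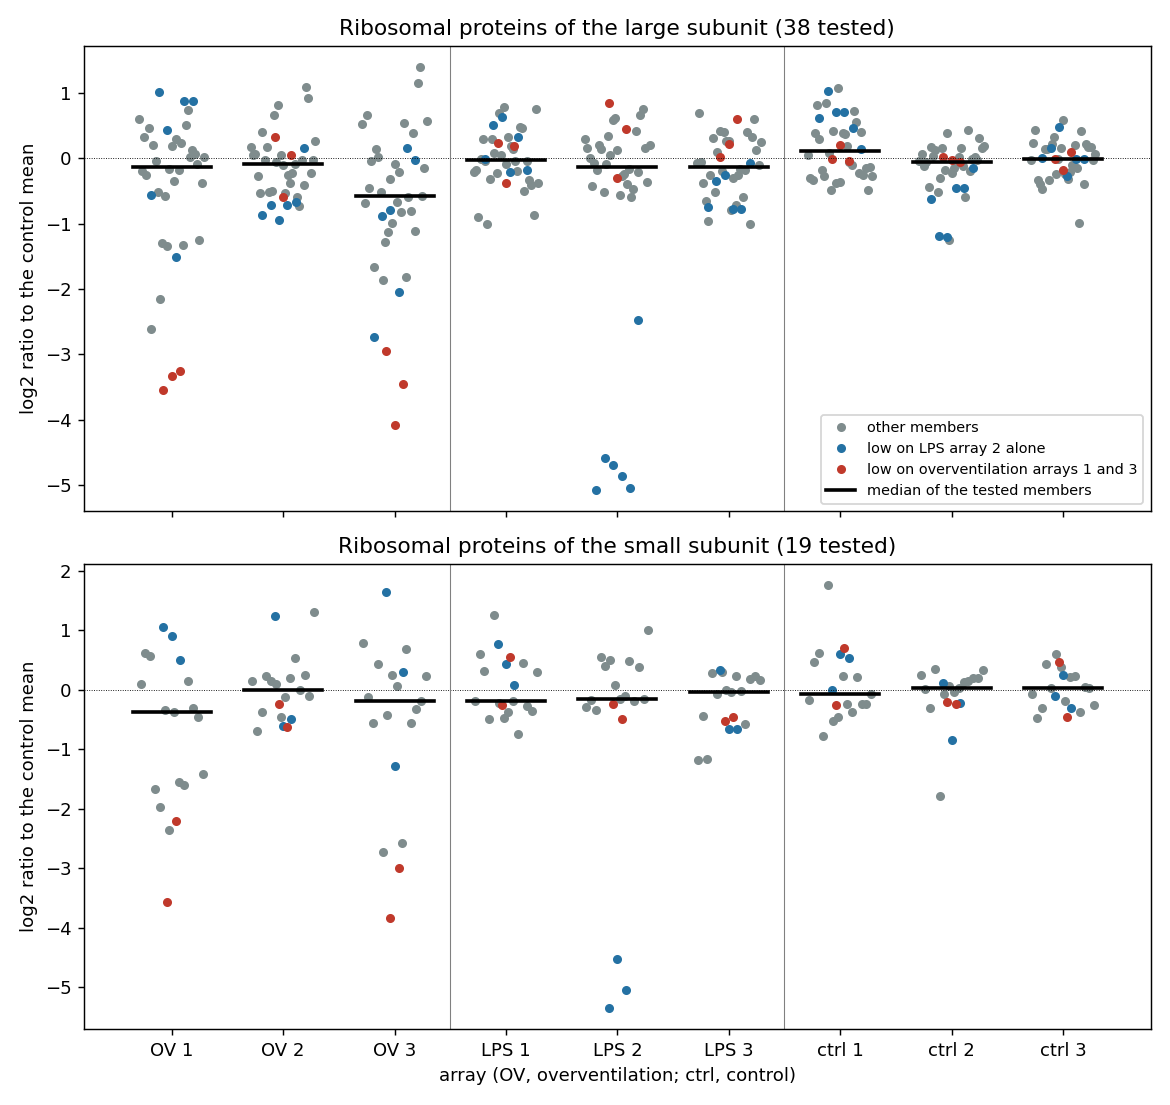
Log2 ratio to the control mean of each tested member (points) on the 9 arrays, for the large (38) and small (19) subunit, with a bar at the median of each array. Blue points lie between -5.35 and -2.48 on LPS array 2, and red points lie between -4.08 and -2.20 on overventilation arrays 1 and 3 but between -0.63 and 0.33 on array 2.

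Overventilated lungs were set against control lungs to find transcripts that differ after ventilation at high pressure. No ribosomal protein gene passed the test, which called 0 of all 5710 probes (0.0%) by limma at an adjusted p under 0.05. At an unadjusted p under 0.05 there were 7 members lower and 0 higher of 57, against 8.69% of all probes lower and 6.2% higher. The median log2 difference was -0.28 over the large subunit genes and -0.14 over the small subunit genes, beside -0.01 over all tested probes. On the lower side lay 26 of the 38 large and 15 of the 19 small subunit genes, beside 50.6% of all tested probes. The samples did not overlap at 5 members that were lower and 2 that were higher, against 10.5% and 9.19% of all probes.

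The lowest members were Rpl27, Rps13, Rpl8, Rpl13a and Rps7, which shared 1 pattern. Rpl27, a protein of the large subunit, lay at -3.33, -0.59 and -4.08 after overventilation, at -0.38, -0.30 and 0.22 after LPS, and at 0.20, -0.02 and -0.18 in controls. Its first and last overventilation values were far below all other arrays and the middle one was near them, and the overventilation and control samples did not overlap. Its difference from control was -2.67 with a standard error of 0.74 (limma adjusted p = 0.201).

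Rps13, a protein of the small subunit, lay at -3.57, -0.24 and -3.83 after overventilation, at -0.25, -0.24 and -0.52 after LPS, and at -0.25, -0.21 and 0.46 in controls. Here the middle overventilation sample stood inside the range of the other groups. The difference from control was -2.55 with a standard error of 0.80 (limma adjusted p = 0.214). Rpl8, which lies near the peptidyl transferase centre, had -3.26, 0.05 and -3.46 after overventilation, 0.18, 0.45 and 0.60 after LPS, and -0.04, -0.06 and 0.10 in controls. The controls of Rpl8 spanned a narrow range and the second overventilation sample was within it, with a difference of -2.22 and a standard error of 0.78 (limma adjusted p = 0.232).

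Rpl13a, known in human myeloid cells also as part of the GAIT complex that silences inflammatory mRNAs, lay at -3.55, 0.33 and -2.95 after overventilation. After LPS it stood at 0.24, 0.85 and 0.02, and in controls at no more than 0.02 from their mean. The second overventilation sample was above all controls while the others were far below, and the difference was -2.06 with a standard error of 0.83 (limma adjusted p = 0.282). Rps7, a small subunit protein that also binds Mdm2, had -2.20, -0.63 and -3.00 after overventilation, 0.55, -0.50 and -0.45 after LPS, and 0.70, -0.24 and -0.45 in controls. All its overventilation samples lay below the controls, the second of them by little, and the difference was -1.95 with a standard error of 0.60 (limma adjusted p = 0.214).

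These 5 members lay on overventilation arrays 1 and 3 more than 1.5 below all 7 other arrays, as did 139 of the 5710 tested probes. That is 8.77% of the tested members beside 2.43% of all tested probes, with no test. Rps7 was just inside that limit, 1.57 below the others, and Rpl26 just outside it, at 1.36. In none of the 5 were 2 arrays at the floor, so the 2 low values of a gene were not both floor values. With a wider limit, 12 members lay below -1 on both arrays, 21.1% beside 9.07% of all probes. Each of the 12 was above -1 on array 2, as were 439 of the 518 probes below -1 on both arrays. The other 7 were Rpl14, Rpl26, Rpl27a, Rpl31, Rpl38, Rps24 and Rps29. Whether the shared pattern belongs to the treatment or to these arrays was not tested. Rps13, Rpl14, Rpl27a, Rps24 and Rps29 were named after their values were seen.

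Rpl26, known in human cells to bind p53 mRNA, lay at -2.15, -0.51 and -1.86 after overventilation, at 0.08, -0.09 and 0.10 after LPS, and at 0.08, -0.30 and 0.22 in controls. Its overventilation samples were all below the 6 others, and the difference from control was -1.51 with a standard error of 0.43 (limma adjusted p = 0.201). Rpl38, whose loss in mice disturbs the translation of Hox mRNAs, had -1.32, -0.08 and -1.82 after overventilation, against -0.10, -0.11 and 0.21 in controls. The second sample lay inside the control range (difference -1.07, standard error 0.42, limma adjusted p = 0.275). Without overventilation replicate 2 the test called 9 of the 57 tested members, all lower, among 290 of the 5710 tested probes. These were Rpl8, Rpl27, Rpl13a, Rpl26, Rps7, Rpl38, Rps13, Rpl14 and Rps29, with the smallest adjusted p at Rpl8 (limma, 0.0013). They include the 5 members chosen for low values on arrays 1 and 3. Rpl14, Rpl26, Rpl38 and Rps29 were among the 12 members below -1 on both arrays and above -1 on array 2. Leaving out array 2 removes the value that differed from the low ones, so that choice favours all these calls. Leaving out any other single array called 0 members.

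Rpl31 and Rpl36a were also lower without overlap. Rpl31 lay at -1.50, -0.71 and -2.05 after overventilation, against 0.71, -0.45 and -0.27 in controls (difference -1.42, standard error 1.03, limma adjusted p = 0.572). That standard error includes its low value on LPS array 2. With isolated low spots missing it was 0.45 (limma adjusted p = 0.17). Rpl36a lay at -0.35, -0.53 and -0.67, against 0.38, -0.14 and -0.24 in controls (difference -0.52, standard error 0.36, limma adjusted p = 0.556). For both the gap between the groups was small beside the spread of the controls.

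Rps2 and Rpl10 were the members that were higher without overlap. Rps2, a small subunit protein at the entry of the mRNA channel, lay at 1.05, 1.23 and 1.64 after overventilation, against -0.01, 0.11 and -0.11 in controls. All 3 overventilated samples were high and the controls lay close together, a 2.47-fold difference (log2 1.31). Its LPS values of 0.77, -5.35 and 0.33 hold 1 very low spot, and the fit, which shares 1 spread over the 3 groups, gave a standard error of 1.29 (limma adjusted p = 0.701). With isolated low spots set to missing the standard error was 0.32 and the adjusted p 0.134 (limma). Rpl10, which sits near the P site of the large subunit, lay at 0.60, 0.17 and 0.52 after overventilation, against 0.06, -0.03 and -0.02 in controls (difference 0.43, standard error 0.29, limma adjusted p = 0.53).

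Rpl7a and Rpl9, named after their values were seen, stood next to Rps2 in the order of differences. Rpl7a had 0.07, 1.09 and 1.16 after overventilation, against -0.25, 0.03 and 0.22 in controls (difference 0.77, limma adjusted p = 0.409). Rpl9 had -0.09, 0.93 and 1.40, against -0.15, -0.03 and 0.18 (difference 0.75, limma adjusted p = 0.483). In both the first overventilation sample lay among the controls and the others above them.

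**Figure D2:**
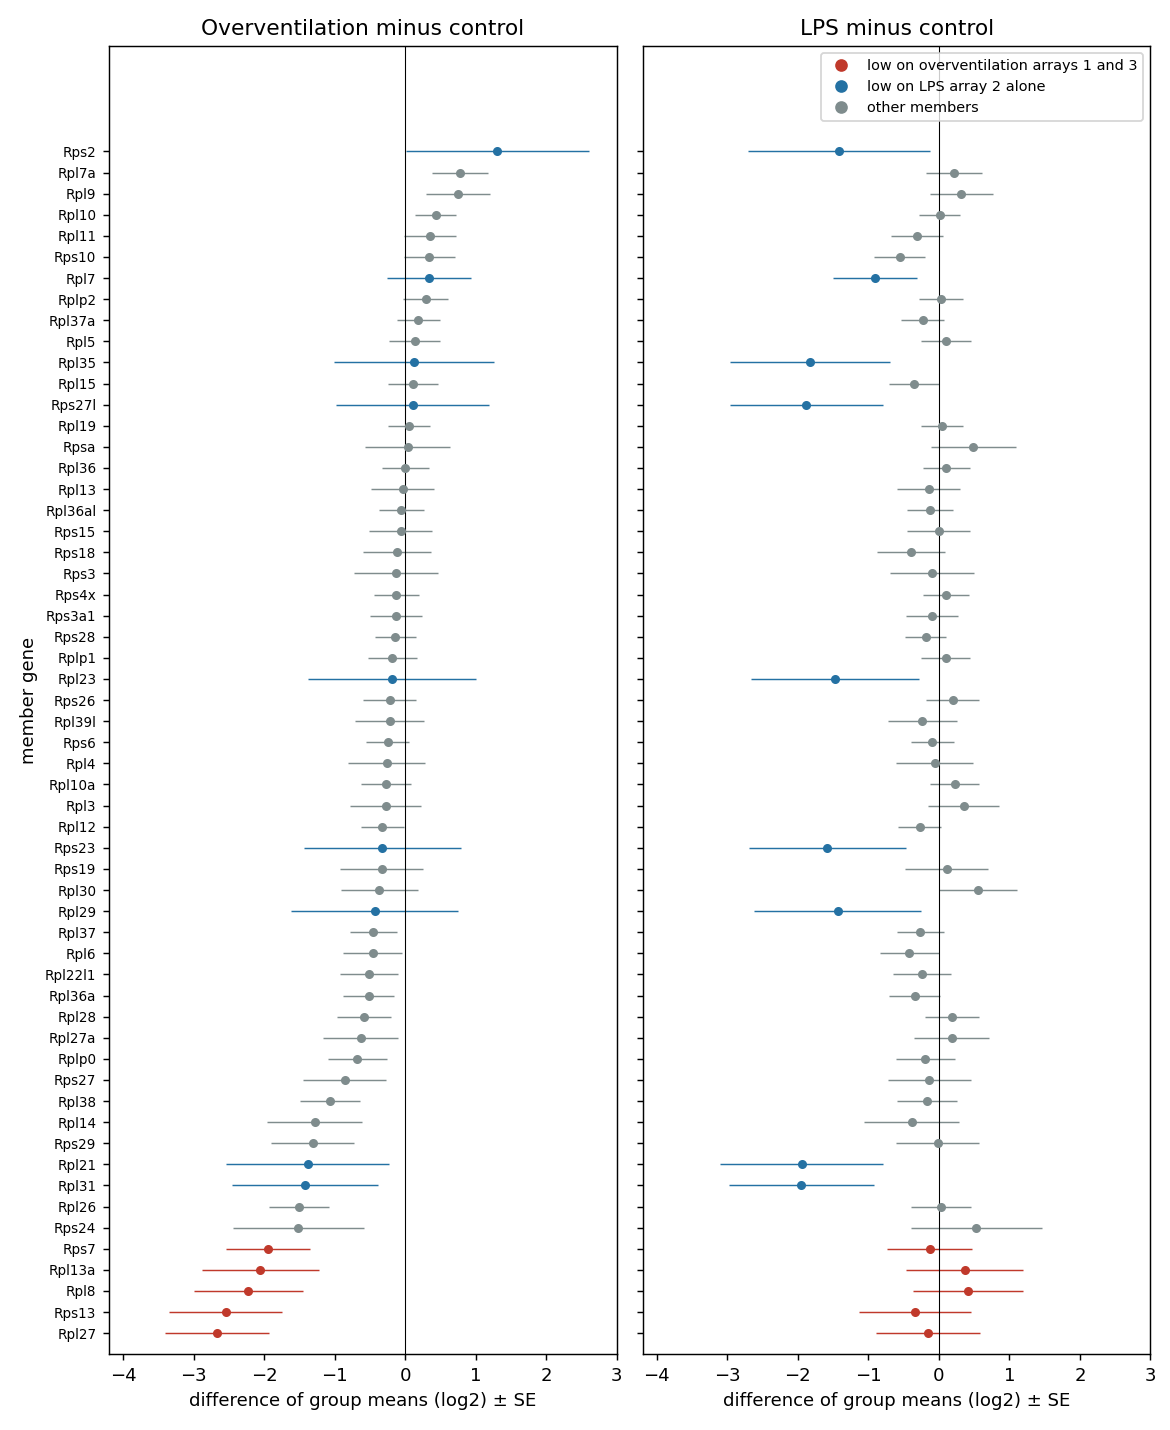
Log2 difference of group means with its standard error for the 57 tested members, ordered by overventilation minus control (left panel), with LPS minus control of the same genes at the right; the control samples are shared. The 5 red genes lie between -2.67 and -1.95 at the left and between -0.34 and 0.41 at the right, and the blue genes, low on LPS array 2 alone, between -1.95 and -0.91 at the right with wide error bars.

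LPS lungs were set against the same control lungs to find transcripts that differ after endotoxin. No member passed, limma called 0 of 5710 probes (0.0%) at an adjusted p under 0.05, and 0 members had an unadjusted p under 0.05, against 0.998% of all probes higher and 1.07% lower. The median log2 difference was -0.15 over the large subunit genes and -0.10 over the small subunit genes, beside -0.05 over all tested probes. The samples did not overlap at 2 members that were lower, Rps10 and Rpl38, and at 1 that was higher, Rpl8, against 4.08% and 2.24% of all probes.

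Rps10, a small subunit protein near the mRNA entry, lay at -0.19, -0.29 and -1.18 after LPS, against -0.17, 0.24 and -0.07 in controls (difference -0.55, standard error 0.36, limma adjusted p = 1). The gap between both groups was narrow and LPS array 3 was the lowest. Rpl38 lay at -0.19, -0.17 and -0.16 after LPS, against -0.10, -0.11 and 0.21 in controls, so that 3 close values were set just below 2 of the controls (difference -0.17, limma adjusted p = 1). Rpl8 had a difference of 0.41 with a standard error of 0.78, a standard error that includes its low overventilation values (limma adjusted p = 1).

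The members with the largest LPS differences owed them to a single array. Rpl21, Rpl23, Rpl29, Rpl31, Rpl35, Rpl7, Rps2, Rps23 and Rps27l each had 1 isolated low value on LPS array 2, more than 1.5 below all 8 other arrays, between -5.35 and -2.48. That is 15.8% of the tested members, 6 of the large and 3 of the small subunit, beside 5.1% of all tested probes (291 of 5710), with no test. The set was sharply bounded: Rpl7 was lowest by a gap of 2.30, the smallest of the 9, and the next member, Rpl37a, by 0.13. No other array but overventilation array 1, with Rps27, held a member with an isolated low value, and no array held one with an isolated high value.

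Rpl35, which lies at the exit of the peptide tunnel, had 0.33, -5.05 and -0.77 after LPS, 0.88, -0.66 and 0.16 after overventilation, and 0.46, -0.46 and -0.00 in controls. Rps27l, a paralog of Rps27 that p53 induces, had 0.07, -5.05 and -0.67 after LPS, 0.49, -0.49 and 0.30 after overventilation, and 0.53, -0.23 and -0.30 in controls. Rpl23, which binds Mdm2, had 0.52, -4.59 and -0.35 after LPS, 1.02, -0.71 and -0.87 after overventilation, and 1.03, -1.19 and 0.15 in controls. In all 3 the second LPS sample stood far below every other array.

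The rest of the set ran alike. Rpl29, known also as a heparin-binding protein, stood at 0.64, -4.69 and -0.26 after LPS, and Rpl21 at -0.01, -5.08 and -0.74, with a further low value of -2.73 on overventilation array 3. Rps23, which lies at the decoding centre, stood at 0.43, -4.52 and -0.66, and Rpl31 at -0.21, -4.87 and -0.78. Rpl7, a large subunit protein, was the shallowest at -0.18, -2.48 and -0.07. A single array at its floor cannot be recognised in these ratios, so the depth of the low values on LPS array 2 may be bounded by the floor. LPS minus control of Rps2 was -1.42 with a standard error of 1.29 and turned to 0.55 with isolated low spots missing, and that of Rpl31 was -1.95 and then -0.50. In that setting the median over the large subunit was -0.09.

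Most of the 9 genes had a further trait in common. In 8 of the 9, all but Rps2, control array 1 lay above control array 2. The median gap over the 9 was 1.16 on the log2 scale, and the highest 2.22. The same direction held for 240 of the 291 probes low on LPS array 2 (82.5%, median gap 0.54). The largest gap of all members, 3.55, was outside the set, at Rps24 (1.76 and -1.79). Over all members control array 1 was above array 2 in 31 of 57 and over all tested probes in 43.0%. In each group the median of the 9 genes was highest on array 1. It was 0.61, -0.46 and -0.00 on the control arrays and 0.88, -0.66 and -0.79 on the overventilation arrays. On LPS arrays 1 and 3 it was 0.33 and -0.66. Over all tested probes, the number 1 arrays of different groups correlated at 0.50 to 0.51 in their deviations from the group means. A link between both was not tested. Adipose markers, of which 3 of 4 probes were tested, had medians of -2.12, -5.28 and -1.93 on the LPS arrays. Their medians were -0.36, -2.21 and -1.19 on the overventilation arrays and 0.75, 0.93 and -1.70 on the controls. Control array 1 lay above control array 2 in the medians of neutrophil markers (0.51 and -0.61) and of macrophage and monocyte markers (0.29 and 0.04). The order was the reverse for adipose, lung (-0.04 and 0.27), B cell (-0.14 and 0.26), T cell (-0.22 and 0.38) and red cell markers (-1.28 and 0.26). Of the 3 tested adipose probes, 2 were among the 291. The adipose marker Lipe had floor values throughout. The part of such markers in the low values of the ribosomal protein genes was not tested. In tissue RNA, fewer cells of a type and less RNA per cell cannot be told apart.

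**Figure D3:**
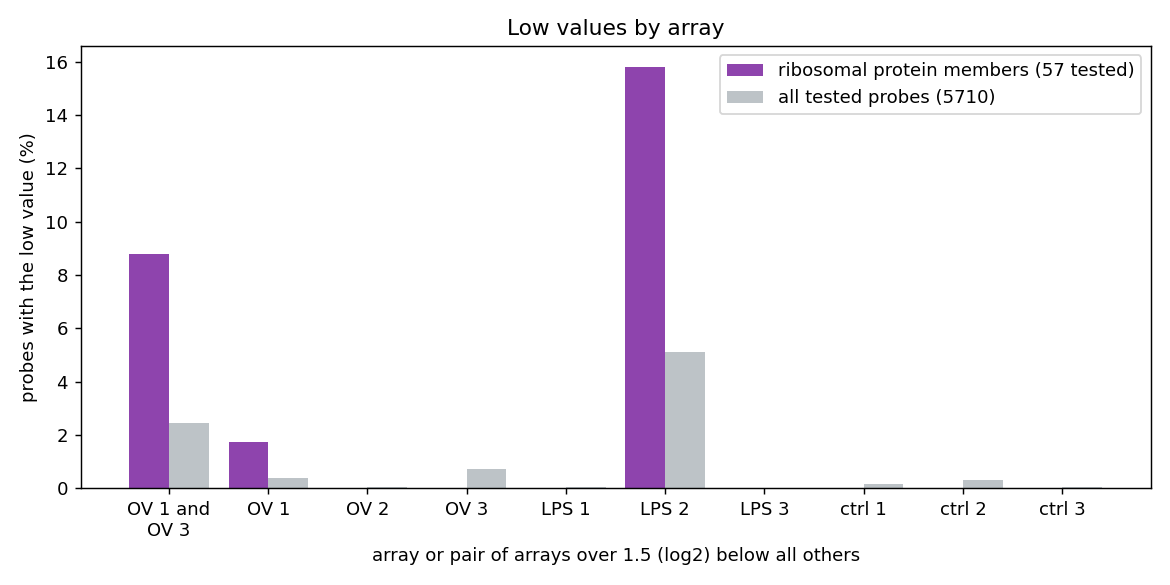
Share of the 57 tested members (purple) and of all 5710 tested probes (grey), in percent, whose value lay over 1.5 on the log2 scale below all other arrays, for overventilation arrays 1 and 3 as a pair and for each array alone. The members reach 15.8% on LPS array 2 beside 5.1% of all probes, and 8.77% on the overventilation pair beside 2.43%.

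Overventilation and LPS were also compared with each other, which asks whether both injuries differ in the lung. Limma called 0 of 5710 probes (0.0%) and 0 members at an adjusted p under 0.05. At an unadjusted p under 0.05 there were 6 members lower and 1 higher after overventilation, against 5.94% and 3.57% of all probes. The samples did not overlap at 5 members that were lower and 4 that were higher after overventilation, beside 5.46% and 5.73% of all probes. The 5 lower ones were Rpl8 (-2.63), Rpl27 (-2.51), Rps7 (-1.81), Rpl26 (-1.54) and Rpl30 (-0.92), with limma adjusted p of 0.494 for the first 4 and 0.61 for Rpl30. Rpl30, a large subunit protein, had -0.16, 0.05 and -0.99 after overventilation, against 0.78, 0.62 and 0.27 after LPS, but its controls spread from -1.25 to 1.08, beyond both groups.

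Of the 4 higher ones, Rps2 had a difference of 2.72 and Rpl7 of 1.25 (limma adjusted p = 0.541 for both). Without LPS replicate 2 these were 0.76 and 0.46, and the overventilation samples of both still lay above the other LPS samples. Rps10 had 0.09, 0.15 and 0.78 after overventilation, against -0.19, -0.29 and -1.18 after LPS (difference 0.90, standard error 0.36, limma adjusted p = 0.499). Rpl11, which with Rpl5 and 5S ribosomal RNA restrains Mdm2, had 0.33, 0.07 and 0.67 after overventilation, against -0.89, 0.00 and -0.05 after LPS (difference 0.67, standard error 0.37, limma adjusted p = 0.582). Without overventilation replicate 2 the test called 7 of the 57 tested members, all lower after overventilation, among 226 of the 5710 tested probes. As against control, leaving out that array favours these calls.

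Some members varied little over the 9 arrays, in a share near that of all probes. The range was under 1 on the log2 scale in 11 members (19.3%, beside 14.6% of all tested probes): Rpl10, Rpl12, Rpl19, Rpl36, Rpl36al, Rpl37a, Rpl5, Rplp2, Rps28, Rps4x and Rps6. Rps6, the substrate of the S6 kinases, lay at -0.46, -0.10 and -0.19 after overventilation, at -0.36, -0.15 and 0.24 after LPS, and at -0.24, 0.20 and 0.03 in controls. Rpl5 lay at 0.03, -0.02 and 0.39 after overventilation, at -0.50, 0.41 and 0.40 after LPS, and at -0.23, -0.20 and 0.43 in controls. All groups of both genes overlapped. The narrowest ranges were those of Rps28 (0.61) and Rpl19 (0.62).

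The proteins of the stalk, which recruits elongation factors to the large subunit, had unlike values. Rplp0, the base of the stalk and a common reference gene, had -1.25, -0.23 and -0.57 after overventilation, -0.86, 0.16 and 0.12 after LPS, and -0.48, 0.32 and 0.17 in controls. On all sides the first array was the lowest, and the difference of overventilation from control was -0.68 with a standard error of 0.42 (limma adjusted p = 0.487). Rplp1 and Rplp2 differed from control by -0.18 and 0.29 after overventilation and by 0.10 and 0.03 after LPS.

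Some members were low on overventilation array 1 but not on array 3. Rps3, which lines the mRNA entry, had -1.60, 0.53 and 0.69 after overventilation, and Rps19, mutated in human Diamond-Blackfan anaemia, -1.68, 0.23 and 0.43. Rpsa, the small subunit protein also known as a laminin receptor, had -1.42, 1.30 and 0.23. Their controls lay between -0.77 and 0.42. Rps27 was the member low on overventilation array 1 alone, with -2.36, -0.46 and 0.24, and Rpl3, a large subunit protein near the catalytic centre, had -1.34, 0.81 and -0.31.

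Paralogs with tissue-restricted or inducible use were few. Rpl3l, a muscle paralog of Rpl3, had floor values throughout the 9 arrays and was not tested. Rps20 was at its floor on overventilation array 3 and control array 1, lay under the highest floor on every array and was not tested either. Rpl22l1, a paralog of Rpl22, lay above the highest floor on 3 of the 9 arrays. It was at or under that floor on all 3 overventilation arrays, on LPS arrays 2 and 3 and on control array 2. Its difference of -0.52 after overventilation is therefore bounded by that floor (limma adjusted p = 0.611). Rpl39l, best known from the testis, lay above that floor on 4 of the 9 arrays. The reference lists named pseudogenes for 45 of the 59 members, 229 in all and up to 24 for Rpl31. Probes for such genes could also bind transcripts of their copies, so these members' values are uncertain in that respect.

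The members did not vary as 1 group across the 9 arrays. The median correlation between pairs of tested members was 0.05 (1596 pairs), 0.01 within the large and 0.08 within the small subunit, and 0.06 between both. Over all pairs of tested probes it was 0.01. Inside the set of 5 it was 0.94 and inside the set of 9 it was 0.92, values that the choice of these sets fixes. All pairs share the same 9 arrays, so these figures are descriptive. The median SD within a group was 0.61 over the 57 members after overventilation, 0.48 after LPS and 0.36 in controls, beside 0.49, 0.47 and 0.38 over all tested probes. Without both sets it was 0.39 after overventilation in the large subunit and 0.63 in the small subunit.

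Other genes of protein synthesis were counted in the same fits, and none passed the test in any comparison. Of 39 tested genes for mitochondrial ribosomal proteins, which build the separate ribosome of mitochondria, 28 were lower and 11 higher after overventilation than in controls, with a median of -0.33, and 29 were lower after LPS, with a median of -0.21. Over all tested probes the share on the lower side was 50.6% after overventilation and 55.3% after LPS. At an unadjusted p under 0.05, 5 of the 39 were lower and 1 higher after overventilation, beside 8.69% and 6.2% of all probes. Mrpl34 had the smallest p, with -1.37, -0.94 and -1.37 after overventilation, against -0.09, -0.00 and 0.09 in controls (difference -1.23, standard error 0.30, limma adjusted p = 0.193). The first and last overventilation values are equal, a sign of the floor, so the difference is a bound, and 1 LPS sample at -1.07 lay among the overventilation samples.

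Ribosome biogenesis genes had a median difference of 0.36 after overventilation, with 17 of 26 on the higher and 9 on the lower side, and of 0.03 after LPS. Nop58, a core protein of box C/D ribonucleoproteins that guide rRNA methylation, had 1.01, 1.53 and 2.48 after overventilation, against -0.03, 0.41 and -0.38 in controls (difference 1.68, standard error 0.43, limma adjusted p = 0.193). Nop10, of the box H/ACA particles that modify uridines of rRNA, had -3.01, -1.84 and -2.19, against 0.90, -0.26 and -0.64 in controls (difference -2.35, standard error 0.49, limma adjusted p = 0.193). Samples of both genes did not overlap, and they differed in direction.

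Of 25 tested translation initiation factor genes 14 were higher and 11 lower after overventilation (median 0.14), and 13 were higher after LPS (median 0.08). Eif5a, whose product helps ribosomes past proline stretches, had 1.30, 1.62 and 4.48 after overventilation, against -0.01, 0.53 and -0.52 in controls (limma adjusted p = 0.214). Eif1ax, which scans for the start codon, had -3.46, -0.64 and -3.65, against 0.51, 0.28 and -0.79 (limma adjusted p = 0.201), and so followed the pattern of Rpl27. Of 13 genes in a list of elongation factors and other TOP mRNAs, 6 were higher and 7 lower after overventilation (median -0.11). At an unadjusted p under 0.05 there were 3 higher and 1 lower. The list also holds Eef1e1, a gene of another kind and among the 3 higher ones. Tpt1, a classical TOP mRNA, had -3.05, -0.37 and -3.36, against 0.21, -0.03 and -0.18 in controls (limma adjusted p = 0.211), again low on arrays 1 and 3. Eef1e1, an auxiliary protein of the aminoacyl-tRNA synthetase complex, had 1.14, 1.57 and 2.66, against -0.73, 0.96 and -0.24 in controls (difference 1.79, limma adjusted p = 0.214), and so lay on the other side. Fau, which encodes the small subunit protein eS30 and lies outside the symbol rule, had 0.96, 0.79 and 0.92, against 1.14, -1.30 and 0.16 in controls. Among 8 regulators of ribosome synthesis Myc had the smallest p, with 1.24, 2.16 and 0.42 after overventilation, against -0.36, 0.55 and -0.19 in controls (limma adjusted p = 0.342).

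**Figure D4:**
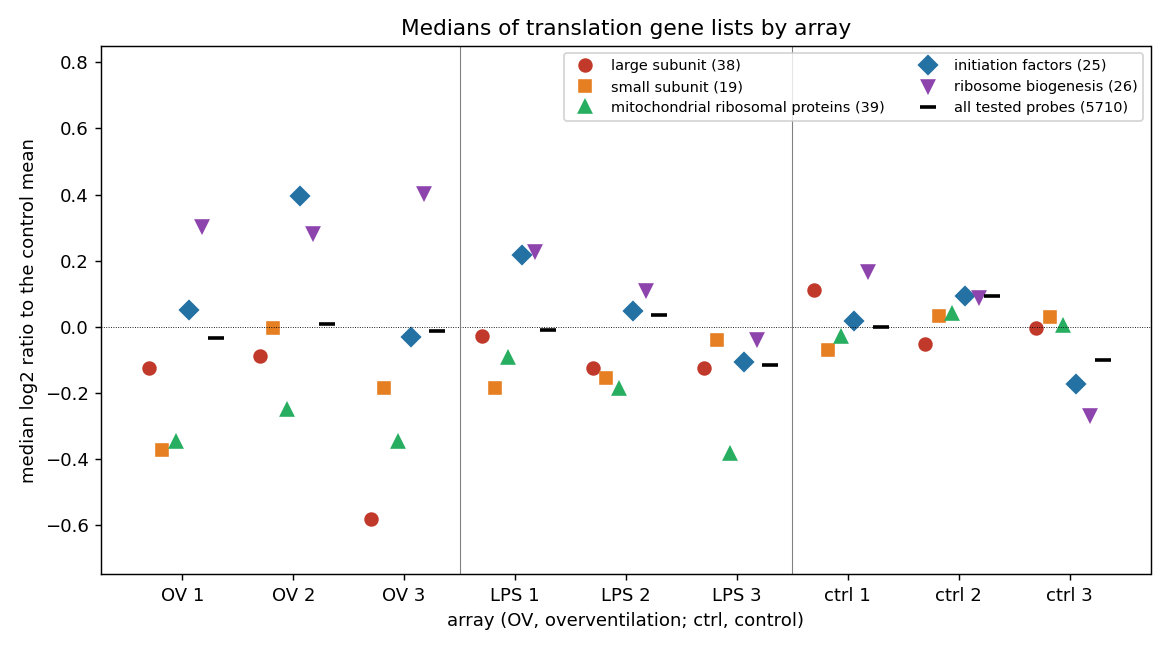
Median log2 ratio to the control mean on each of the 9 arrays for the large and small subunit members and for fixed lists of related genes, with the median of all 5710 tested probes. Ribosome biogenesis genes lie at 0.30, 0.28 and 0.40 on the overventilation arrays and mitochondrial ribosomal protein genes at -0.35, -0.25 and -0.35, while the large subunit median is -0.58 on overventilation array 3 alone.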

How the data were processed

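RNA of 9 mouse lung samples (3 overventilation, 3 LPS, 3 control, grouped by the samples' descriptions) was measured on arrays. The values deposited by the authors are a linear ratio per probe. Their origin was read from the values: the log2 control mean was 0 at every probe (largest deviation 2.49e-09). The array maker, the dyes and the authors' earlier steps are not stated in the labels. Arrays give no read depth, and their number limits the precision.

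Values were taken to log2. Floors were found as a fixed pattern over arrays (tolerance 1e-06), at 2 or more arrays of 4690 probes, and raised to the highest, a ratio of 2.222. A probe was tested if above that floor on 3 or more arrays or if its floor was unknown. The test was limma 3.58.1 under R 4.3.3 (linear model, moderated variances, two-sided, 1 spread for all groups, Benjamini-Hochberg over 5710 probes, threshold 0.05), a fit tested on simulated data. The members, lists and sets were chosen with earlier results of these data known. Genes are named by the array annotation. The text names members fixed by name, those without overlap, those with the smallest p and those with isolated spots. It also names steady members, members with floor values and others picked after their values were seen.

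Same-numbered arrays' deviations from the group means correlated at 0.50, 0.25 and 0.20 for LPS and control. The correlations were 0.51, 0.13 and 0.03 for overventilation and control, and 0.50, 0.21 and 0.04 for overventilation and LPS. No label states pairs, and the main fit used none. Same-numbered arrays were treated as pairs only in the replicate block, an alternative. No arrays were identical. Alternatives were the floor, the filter, scaling, an offset of 0.5, array weights, isolated low spots (over 1.5 below all 8 others) missing, a replicate block and each array left out.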

Additional observations from a re-analysis of the deposited data

How the results depend on the processing

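Under the 8 alternatives that keep all arrays (no floor, no filter, 2 scalings, an offset, array weights, isolated low spots missing and the replicate block), limma called 0 members in each of the 3 comparisons. The replicate block left the medians at -0.28, -0.15 and -0.05 in the large and at -0.14, -0.10 and -0.16 in the small subunit (overventilation against control, LPS against control, overventilation against LPS) and called 0 probes, so the pairing changed no call. With single arrays left out, members called ranged from 0 to 9 (overventilation against control), 0 to 0 (LPS against control) and 0 to 7 (overventilation against LPS), and probes called from 0 to 290, 0 to 1 and 0 to 226, with 0 to 200 in the F test over 3 groups. All calls of members came without overventilation replicate 2, and the single probe was called without control replicate 3.

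The large subunit median for LPS against control was -0.0405 with quantile normalization and -0.0603 without the members of both low sets, an alternative chosen after seeing the data, and with single arrays left out it ranged from -0.18 to -0.0578. The other ranges were -0.40 to -0.11 for overventilation against control and -0.28 to 0.0593 for overventilation against LPS in the large subunit, and -0.32 to -0.12, -0.14 to -0.06 (LPS against control) and -0.36 to -0.0535 (overventilation against LPS) in the small subunit. The cause of these shifts was not tested. The change of the large subunit between overventilation and LPS thus has no stable direction (0.03 with array weights). With 3 arrays a group, a difference that misses the threshold is not shown to be absent.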
